A study of Pinus pinaster with 24 samples.

Results

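The transcripts described here are 200 of maritime pine (Pinus pinaster) root tips that stood high in developing vessels, and in none of the other 3 tissues sampled, in seedlings that had received water. They were chosen on the 12 water libraries. For each transcript the means of log2(value + 1) in the 4 tissues were sorted, and a transcript met the rule when the gap between the vessels and the next tissue was the widest gap, was at least 1, and the 3 vessel libraries lay above all 9 others. Of 47118 transcripts in the deposited table, 2582 met the rule for vessels, and the 200 with the widest gaps form the list. The same rule was met by 981 transcripts for the root cap, 453 for the meristem and 909 for the developing cortex. Because water values chose the members, their tissue differences under water are a description without a test, and the comparisons of ammonium with water further down use the same water values.

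In the young vascular cylinder of a root, procambial cells turn into water-conducting xylem and into phloem. As background, maturing xylem cells lay down a secondary wall of cellulose, hemicelluloses and lignin and then lose their living contents, so that a hollow, reinforced tube remains. In conifers these conducting cells are mostly tracheids. The sampling protocol calls the area developing vessels, while the sample titles name it developing root vascular tissue, which would take in more than xylem. The meristem supplies the dividing cells from which all these tissues arise, the cap covers it, and the cortex lies between the vascular cylinder and the root surface. Ammonium is a nitrogen source that roots take up and build into glutamine and glutamate.

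All plants were seedlings 1 month old, raised on vermiculite and given a nutrient solution without nitrogen for 3 days. They were then irrigated with 80 mL of water or 80 mL of 3 mM ammonium chloride, and root tips were taken 24 h later. Developing vessels, developing cortex, meristem and root cap were cut by laser from frozen sections 30 µm thick, and the labels say that these areas match the tissues only approximately. Amplified cDNA was sequenced as paired reads of 150 bp, with 3 libraries for each tissue and treatment, numbered as experiments 1, 3 and 4. The labels do not give the number of seedlings per library or say whether the experiments were separate batches of plants, and p-values therefore refer to the spread among libraries, part of which may be technical. The files pair no transcript with a gene name or a sequence, so the tissue names could not be checked against marker genes, and the transcripts appear under their identifiers with no role given.

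Depth ran from 67135340 to 88268689 recovered reads per library, and 3 reads corresponded to a value of 0.0309 to 0.0493. These floors cover counting error only. Values are reads over a scaled library size and not per transcript length, so levels are compared between libraries and not between transcripts. All 6 vessel libraries resembled their own group, with r across all transcripts between 0.901 and 0.963 within the water and the ammonium group. Some comparison libraries did not. The meristem ammonium library of experiment 3 correlated at 0.947 with the mean cortex water profile and at 0.854 with that of the meristem. The meristem ammonium library of experiment 4 stood at 0.898 with root cap and 0.882 with meristem, and the cortex ammonium library of experiment 1 at 0.942 with root cap and 0.928 with cortex. The main results that rest on the meristem ammonium libraries are therefore also given without those of experiments 3 and 4.

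In the vessels of water-treated seedlings the 200 transcripts together made up 1.76%, 2.67% and 2.71% of all signal in experiments 1, 3 and 4. Experiment 1 was the lowest of the 3. In the other tissues under water their share lay between 0.00557% and 0.323%. The highest of these was the meristem library of experiment 3, and the other 2 meristem libraries stood at 0.0344% and 0.0424%. The cortex held 0.0363%, 0.0756% and 0.112%, and the root cap 0.0352%, 0.0231% and 0.00557%. In bulk tissue, fewer cells of a type and less RNA per cell cannot be told apart.

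**Figure D1:**
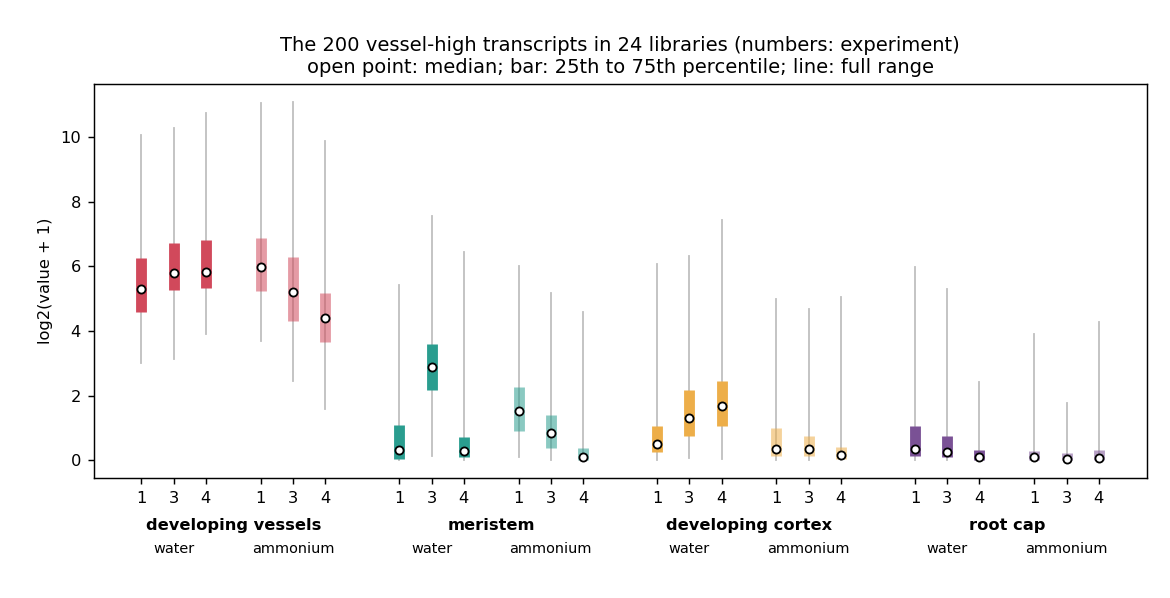
Values of the 200 transcripts in each of 24 libraries, as log2(value + 1) on the y axis, with libraries grouped by tissue and treatment on the x axis. Open points are medians, bars the 25th to 75th percentile and grey lines the full range; the vessel medians run from 20.0 to 62.2 on the linear scale, and the highest median outside the vessels is 6.34, in the meristem water library of experiment 3.

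The median transcript had a value of 38.3, 54.0 and 55.3 in the 3 vessel water libraries. In the meristem the medians were 0.244, 6.34 and 0.229, again with experiment 3 apart. The other 2 meristem libraries were within the range of the root cap. The cortex medians were 0.437, 1.46 and 2.21. The root cap medians were all at or under 0.288. Counting any read, 92 members had signal in all 18 libraries of the other tissues. The other 108 were at 0 in at least 1 of them, up to 12 libraries for a single member. A value above 0 can lie under the floor of 3 reads. In the root cap ammonium library of experiment 3 the members' median was 0.0339 and the floor 0.0407.

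The tissue next below the vessels under water was the meristem for 101 members, the cortex for 97 and the root cap for 2. This split rested on 1 library. The meristem water library of experiment 3 was the highest library outside the vessels for 168 members, and in it the median member reached 11.3% of its vessel water mean (quartiles 8.93% and 15.2%, range 0.381% to 30.7%). In the other 2 meristem water libraries the corresponding medians were 0.448% and 0.367%. Across all transcripts that library still resembled the other meristem water libraries most (r = 0.957) and the vessels less (r = 0.880). With it left out, the cortex was the next tissue for 160 members, the meristem for 29 and the root cap for 11, and the median gap of the same members went from 4.02 to 4.29 on the log2 scale. Why the members stood higher in this library was not tested.

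**Figure D2:**
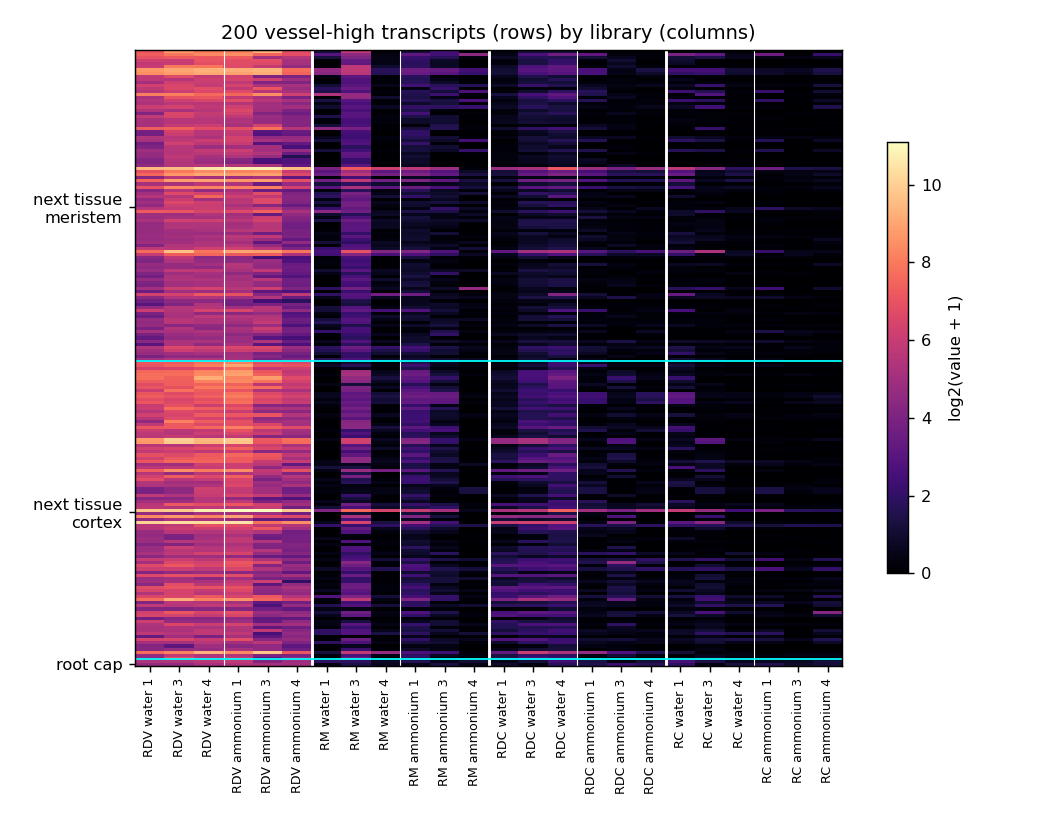
Heat map of the 200 transcripts (rows) in 24 libraries (columns; RDV is developing vessels, RM meristem, RDC developing cortex and RC root cap), coloured by log2(value + 1). Rows are grouped by the next tissue under water (101 meristem, 97 cortex, 2 root cap) and ordered by gap within each group; among the meristem columns, experiment 3 under water stands out, where 186 members reach a value of 1.

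The widest gap, 6.28 on the log2 scale, belonged to pp_155609. Its values in vessels under water were 139, 150 and 216, and in vessels under ammonium 279, 109 and 93.5, for experiments 1, 3 and 4. The highest of the 18 other libraries was 3.70, in the cortex under water. Its neighbour by identifier, pp_155608, had a gap of 5.71. It stood at 78.1, 85.2 and 111 in the vessels under water, and at 213, 58.2 and 73.6 under ammonium. In the root cap under ammonium both were at 0 in all 3 libraries. Neither was high in the meristem water library of experiment 3, with 0.866 and 0.509.

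The member pp_76264, with a gap of 5.62, behaved otherwise. Under water its vessel values were 140, 437 and 273, and its meristem values 1.25, 57.9 and 0.0688. Under ammonium the vessel values were 281, 640 and 111, and the meristem values 1.26, 4.26 and 0.114. Its cortex and root cap values stayed at or under 1.23 in all 12 libraries. For this transcript, experiment 3 was the highest of the 3 in the vessels and in the meristem under both treatments.

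The remaining members with the widest gaps fell between these patterns. For pp_203568, with a gap of 6.27, the vessel values were 132, 183 and 275 under water and 525, 140 and 126 under ammonium. Its highest values elsewhere were 3.88 in the cortex under water and 3.78 in the meristem under ammonium. As in pp_155609, experiment 1 was the lowest vessel library under water and the highest under ammonium. The vessel values of pp_199412, with a gap of 5.52, were 155, 164 and 289 under water and 337, 221 and 77.2 under ammonium. It reached 20.3 in the meristem water library of experiment 3 and was at 0 in all 3 root cap ammonium libraries.

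The 4 members with the highest mean value in vessels under water were pp_155709, pp_227588, pp_155707 and pp_57707. For pp_155709 the vessel water values were 868, 994 and 1729 (mean 1197 ± 465, SD, n = 3), and the ammonium values 2123, 2186 and 933. It was well above the floor elsewhere too, at 35.9, 48.1 and 174 in the cortex and 16.1, 186 and 85.5 in the meristem under water. The member pp_155707 followed it in the vessels, with 718, 765 and 1459.6 under water and 1775, 1783 and 768 under ammonium. In pp_227588 the 3 vessel water libraries were close together, at 1066, 1240 and 1264 (mean 1190 ± 108, SD, n = 3). The ammonium libraries of that transcript ran from 221 to 1395, so the groups overlapped. In the order of the gaps these 4 stood at places 88, 96, 87 and 37.

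**Figure D3:**
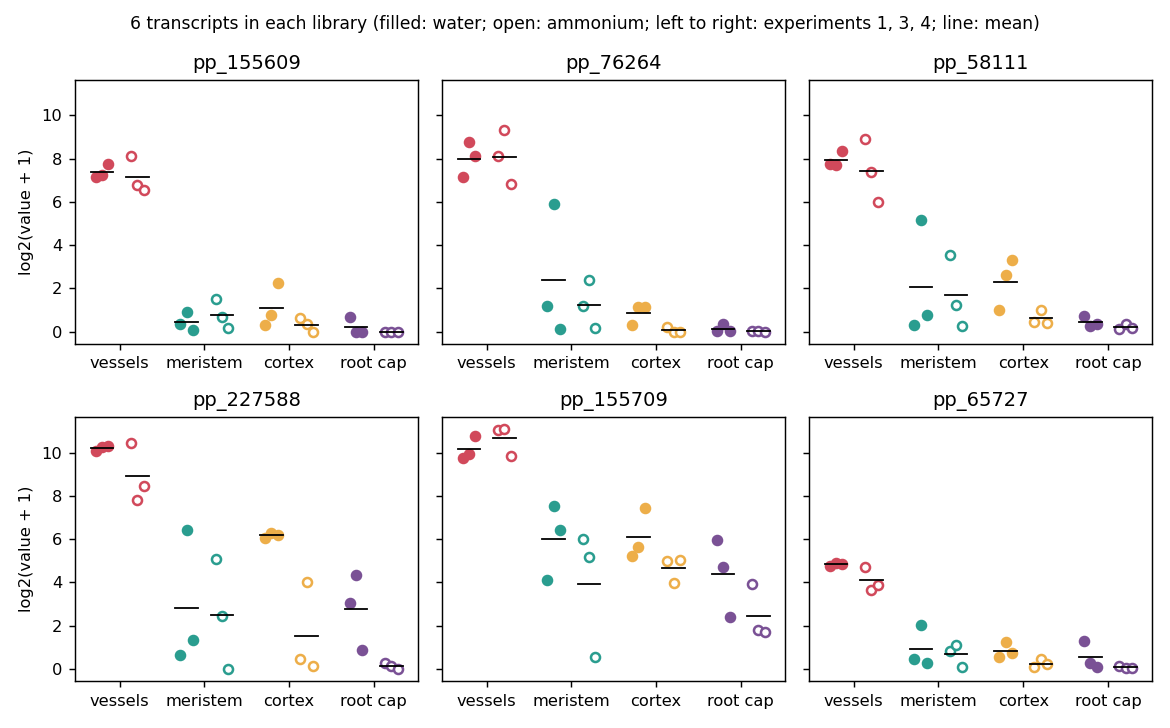
Values of 6 members in each library, as log2(value + 1) on the y axis, by tissue on the x axis; filled points are water and open points ammonium, from left to right experiments 1, 3 and 4, and lines are group means. For pp_155609 every vessel library lies at or above 93.5 on the linear scale and every other library at or below 3.70, whereas pp_227588 has cortex water values between 65.7 and 78.3 and much lower cortex ammonium values.

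At the limit of the list the values changed smoothly. The last 3 inside it, pp_161444, pp_116639 and pp_184066, had gaps of 3.57. The first 3 outside it, pp_216496, pp_236160 and pp_79638, had gaps of 3.56. The vessel water values of pp_184066 were 32.1, 42.0 and 44.0, and those of pp_216496 were 20.7, 11.4 and 30.3.

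Some members had consecutive identifiers. The 200 formed 127 runs, of which 86 were single transcripts and 41 held 2 or more, with 114 members in all. These were 57% of the members. In runs of 2 or more lay 67.7% of all transcripts that met the rule and 86.6% of all transcripts in the table. A larger set holds more neighbours by its size alone. These shares therefore cannot say whether such runs were particular to the members. Members of a run mostly moved together in the vessels. Over the 6 vessel libraries the median r was 0.990 for the 73 consecutive pairs (lowest 0.238) and 0.647 for all 19900 pairs of members. These points share their libraries and are given as a description. The files do not say whether neighbouring identifiers are isoforms, fragments or copies of a gene, so 200 transcripts are not 200 independent genes.

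The longest run held 11 members, pp_58111 to pp_58121. Its first member stood at 213, 211 and 331 in vessels under water and at 483, 165 and 62.7 under ammonium. Over the 11 members the median was 58.2, 62.6 and 116 under water, and 107, 98.2 and 34.4 under ammonium. The same median was 8.60 in the meristem water library of experiment 3 and 2.41 in the meristem ammonium library of experiment 1. In the root cap it was 0.577 in experiment 1 under water and 0 in all 3 ammonium libraries. The members of the run did not move as a block everywhere. In the vessel ammonium library of experiment 3, pp_58113 had 135 against 195 in the water library of that experiment, whereas pp_58112 had 456 against 170.

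Agreement between the 3 vessel water libraries varied from member to member. The coefficient of variation had a median of 0.334 and ran from 0.0449 in pp_245274 to 0.896 in pp_154549. The former stood at 39.5, 37.7 and 41.2, and the latter at 43.9, 45.0 and 187. Experiment 1 was the lowest of the 3 for 145 members. Experiment 4 was the highest for 101 and experiment 3 for 89. Other members with a wide spread had it in other libraries: pp_204018 stood at 22.2, 287 and 157, and pp_142037 at 14.6, 20.7 and 73.1. Among the steadiest were also pp_65727, at 25.8, 29.0 and 27.7, and pp_212079, at 35.8, 41.7 and 37.7.

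The 12 ammonium libraries took no part in choosing the members, so the tissue difference could be tested in them. In those libraries the vessels stood above each of the other tissues for 198 of the 200 members at an adjusted p under 0.05 in all 3 comparisons (limma with Benjamini-Hochberg adjustment over 46960 transcripts). Of all transcripts tested, 5.06% passed the same test. All 200 members passed the filter on low values, which they could do through their vessel water libraries alone. Against the root cap 200 members were called higher (8.91% of all transcripts), against the meristem 198 (5.61%) and against the cortex 200 (9.48%). The median differences were 4.85, 4.20 and 4.67 on the log2 scale.

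Without a model, the 3 vessel ammonium libraries lay above all 9 other ammonium libraries for 198 members, against 7.83% of all transcripts tested. The choosing rule itself, applied to the ammonium libraries, was also met by 198 members, against 5.65% of all transcripts. The difference between the vessels and the next tissue ran from 2.46 to 6.85 with a median of 4.19. It exceeded the gap under water for 112 members and fell short of it for the others. The next tissue was the meristem for 178 members, and the highest library outside the vessels was the meristem ammonium library of experiment 1 for 141. Without the meristem ammonium libraries 3 and 4, the vessel libraries lay above the 7 others for 199 members (9.65% of all transcripts), and 195 met the rule (5.38%). The difference to the next tissue then had a median of 3.64, with 43 members above their gap under water, and the meristem was the next tissue for 189.

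**Figure D4:**
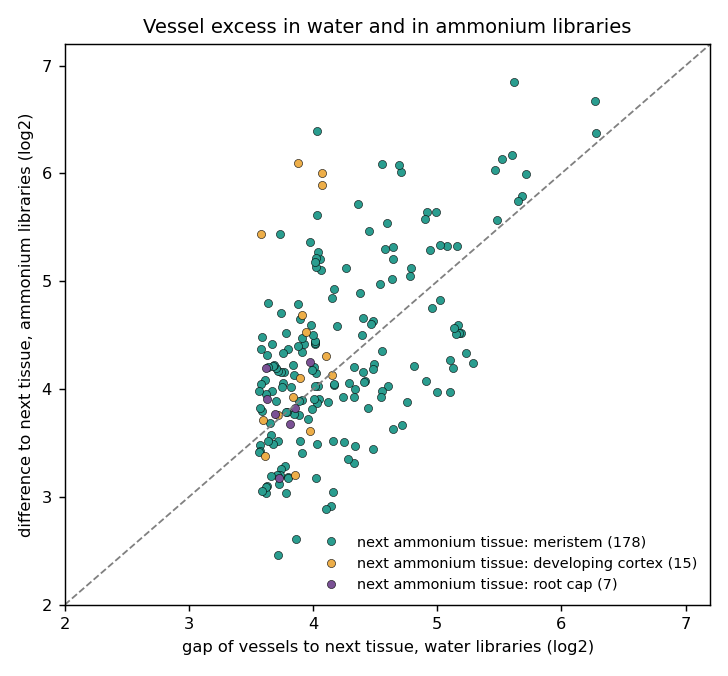
Each point is 1 of the 200 members, with the log2 gap between vessels and the next tissue in the water libraries on the x axis and the log2 difference to the next tissue in the ammonium libraries on the y axis; the dashed line marks equal values, and colours give the next ammonium tissue. All points lie at or above 2.46 on the y axis, and 112 lie above the line.

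The strength of this call depended on the test and on the meristem libraries. With edgeR's quasi-likelihood test on the recovered reads, 85 members were called higher over each other tissue at an adjusted p under 0.05, against 1.73% of all transcripts. The comparison with the meristem set that number, since 193 were called against the root cap (7.47% of all transcripts) and 182 against the cortex (7.0%). DESeq2 called 177, against 5.21% of all transcripts, and gave no adjusted p for 9 members. With the meristem ammonium libraries of those 2 experiments (3 and 4) left out, which leaves 1 meristem library assumed to vary like the other groups, limma called 126, against 1.31% of all transcripts. All 200 differences remained positive in the edgeR and DESeq2 fits.

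The largest differences under ammonium belonged to pp_76264 (6.85 against the meristem, SE 0.61, limma adjusted p 0.000152), pp_203568 (6.68, SE 0.68, adjusted p 0.000261), pp_227588 (6.39, SE 1.28, adjusted p 0.0122) and pp_155609 (6.37, SE 0.43, adjusted p 8.32e-05). The call of pp_227588 was lost with edgeR (adjusted p 0.268), with a pseudocount of 0.1 (adjusted p 0.0526), without the vessel ammonium library of experiment 1 (adjusted p 0.0613) and without the 2 meristem libraries named above (adjusted p 0.235). The other 3 of these kept theirs in every alternative run. The smallest difference was that of pp_108531. Its vessel values under ammonium were 13.8, 4.48 and 2.56, against 0.532, 0.126 and 0 in the meristem, a difference of 2.46 (SE 0.42, adjusted p 0.00479). This was less than its gap of 3.72 under water. The next smallest, pp_170967, pp_169374 and pp_169378, had differences of 2.61, 2.88 and 2.92. All 4 had their lowest vessel values in experiments 3 and 4 under ammonium; for pp_169374 these were 4.99 and 6.24, against 16.7 in experiment 1. Of the 33 members named by the rule for named transcripts, 28 lost the call with edgeR and 12 without the 2 meristem libraries.

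A few members went against the general picture, and they are named here after their values were seen. For pp_124500 the meristem ammonium library of experiment 4 stood at 23.1, above the vessel library of that experiment at 15.4, and the difference of 3.26 to the meristem had an adjusted p of 0.0875 (limma, SE 0.98). For pp_101712 the root cap ammonium library of experiment 4 stood at 18.5, and the vessel libraries at 112, 27.2 and 22.1. Its difference of 3.95 to the meristem had an adjusted p of 0.0528. For pp_224146 the cortex ammonium library of experiment 3 stood at 24.5 and the other 2 cortex libraries at 1.87 and 1.83. The vessel libraries of that transcript stood at 135, 95.2 and 11.4, so the groups overlapped although the limma test called the difference (3.21, adjusted p 0.0440).

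The share called over each other tissue decreased with the gap that had chosen the transcript. It was 99.0% for the 200 members, 95.7% for the next 300 transcripts that met the rule, 87.8% for the next 500, 65.6% for the next 1000 and 47.8% for the last 573 that were tested. Without the meristem ammonium libraries 3 and 4 these shares were 63.0%, 46.7%, 29.0%, 11.7% and 2.62%. Lists of 200 chosen in the same way for the root cap, the meristem and the cortex held 0 called members each, where called means higher over each other tissue in the ammonium libraries (limma). Of all transcripts, 0.0%, 0.00213% and 0.0% passed that test for those tissues. The own tissue still had the highest ammonium mean for 194, 193 and 194 of these transcripts, and the median differences to the next tissue were 1.61, 0.49 and 2.19. With the 2 meristem libraries left out, 0, 3 and 3 of these members were called, against 0.0%, 0.0894% and 0.00639% of all transcripts.

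Ammonium was compared with water within each tissue, and here the choice of members matters. Transcripts picked for high water values in the vessels and low ones elsewhere tend to lie lower in the vessels and higher elsewhere in libraries that were not used to pick them. In the vessels the members' median difference was -0.49 on the log2 scale, against -0.01 for all transcripts, with 176 members lower under ammonium and 24 higher. The other transcripts that met the rule leaned the same way. In order of gap, the medians were -0.42, -0.45 and -0.34 for the next 300, 500 and 1000, and -0.22 for the last 573 tested. No member passed the test (limma, 24 libraries in 8 groups, against 0.00213% of all transcripts). At an unadjusted p under 0.05, 15 members were lower and 0 higher, where 1.59% of all transcripts were lower. With edgeR none passed and 0 had an unadjusted p under 0.05 (0.615% of all transcripts were lower), and DESeq2 called 0 members lower (0.0362%) or higher. The median was -0.32 with edgeR. The median 95% half-width of a member's difference was 1.22 before any adjustment for the number of transcripts.

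The 3 vessel ammonium libraries differed widely among themselves. Relative to the mean of the 3 water libraries, the median member stood at 0.30 in experiment 1, at -0.40 in experiment 3 and at -1.38 in experiment 4. The members' share of all signal went the same way, at 2.81%, 2.05% and 0.946%. In experiment 4, 190 members lay below all 3 vessel water libraries, as 36.1% of all transcripts did. In experiment 1, 143 lay above the water mean, against 50.7% of all transcripts. Without the ammonium library of experiment 4 the median difference in the vessels was 0.07, and without that of experiment 1 it was -0.81. When members were chosen anew on the water libraries of the other 2 experiments and read in the experiment left out, the median differences were 0.78, -0.03 and -1.52 for experiments 1, 3 and 4, so the experiments did not share a direction.

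**Figure D5:**
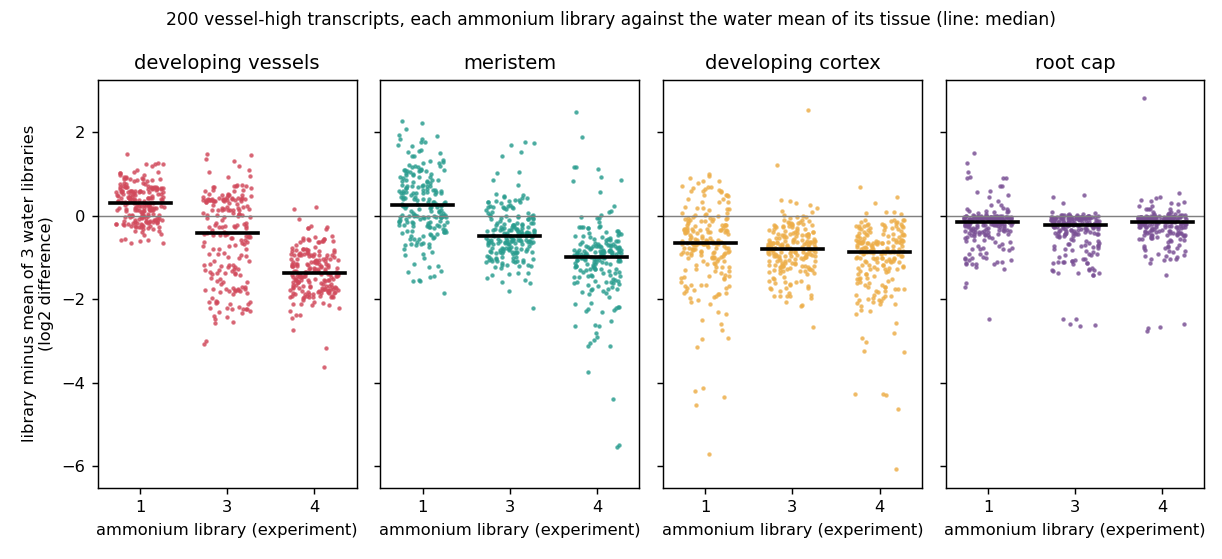
Log2 difference of each ammonium library from the mean of the 3 water libraries of its tissue (y axis) for the 200 members (points), by experiment (x axis) and tissue (panels); black lines are medians. In the vessels the medians are 0.30, -0.40 and -1.38, and in the cortex -0.66, -0.79 and -0.86 for experiments 1, 3 and 4.

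In the vessel ammonium library of experiment 3 the members were spread out. Against the 3 vessel water libraries, 38 members lay above all of them there, 71 within their range and 91 below all. Of all transcripts, 30.3% lay above and 29.2% below. The SD of the members' differences from the water mean was 1.04 in that library, against 0.44 in experiment 1 and 0.55 in experiment 4. Examples at the 2 ends were pp_76264, with 640 there against a highest water value of 437, and pp_57707, with 144 there against a lowest water value of 441. Of the 38, 29 had the meristem as next tissue under water, and of the 91, 57 had the cortex. Of the 41 runs of consecutive identifiers, 35 fell within 1 of these classes. The classes were formed from the values of 1 library and carry no test.

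In that library the correlation with the other 5 vessel libraries over the 200 members was also the weakest, at 0.683 to 0.795, against 0.815 to 0.928 among the other 5. The coefficient of variation over the vessel ammonium libraries had a median of 0.641 and was larger than under water for 188 members. Only pp_65727 had 3 vessel ammonium libraries apart from the 3 water libraries, all lower, against 4.25% of all transcripts. Its water values were 25.8, 29.0 and 27.7 and its ammonium values 25.6, 11.7 and 13.8, a difference of -0.74 (SE 0.40, limma adjusted p 1). The nearest of these values, 25.6 and 25.8, were almost equal. No member had all 3 vessel ammonium libraries above the water libraries, as 4.44% of all transcripts did.

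In the cortex the members were already low under water and lower under ammonium, with a median difference of -0.74 against -0.03 for all transcripts and with 190 members lower. For the next 300, 500 and 1000 transcripts that met the rule the medians were -0.34, -0.27 and -0.17, and for the last 573 tested -0.14. The members' median depended on the scale: it was -1.77 with a pseudocount of 0.1, -0.28 with a pseudocount of 4, -2.32 with edgeR and -2.30 with DESeq2. No member passed the limma test (0.268% of all transcripts did), and 31 were lower at an unadjusted p under 0.05, against 5.75% of all transcripts. With the spread of the 6 cortex libraries alone 0 passed and 91 were lower at that unadjusted p, against 2339 of 46960 transcripts. The count was 21 (2280 of all transcripts) without the cortex ammonium library of experiment 1. It was 63 (2653 of all transcripts) without the meristem water library of experiment 3. With edgeR 0 passed, with 54 lower at an unadjusted p under 0.05 (6.21% of all transcripts), and DESeq2 called 8, all lower (1.2%). For 77 members the 3 cortex ammonium libraries lay below all 3 water libraries, against 9.24% of all transcripts. For no member did the ammonium libraries lie above all water libraries, as they did for 6.37% of all transcripts. The cortex water libraries were themselves uneven, with experiment 1 the lowest for 176 members and experiment 4 the highest for 130. Read in the experiment left out, the medians in the cortex were -0.05, -0.76 and -1.42 for experiments 1, 3 and 4.

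The member with the greatest cortex difference was pp_227588, which was named for its high vessel level. Its cortex values were 65.7, 78.3 and 71.9 under water and 0.391, 15.3 and 0.0849 under ammonium, with no overlap. The difference was -4.64 (SE 1.36, limma adjusted p 0.180). In the vessels the same transcript stood at 1395 in experiment 1 under ammonium, above all water libraries, and at 221 and 355 in experiments 3 and 4, below all of them. Likewise pp_57707 had 24.3, 36.4 and 17.2 in the cortex under water and 0.488, 5.82 and 0.354 under ammonium, a difference of -3.43 (SE 1.23, adjusted p 0.283). Under ammonium both were highest in the cortex in experiment 3, the experiment in which both were lowest in the vessels.

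In the meristem the median difference of -0.34, against 0.01 for all transcripts, turned to 0.39 without the water library of experiment 3, and it was 0.25 with both ammonium libraries that stood apart left out. Leaving out any 1 of the water libraries of experiments 1 and 4 or the ammonium library of experiment 1 gave -0.78, -0.78 and -0.75, and without the ammonium library of experiment 4 it was -0.00. None of the members passed the limma test there (0.0% of all transcripts did), and 5 were lower at an unadjusted p under 0.05, against 6.29% of all transcripts. The tool edgeR called 0, with 17 lower at an unadjusted p under 0.05 (3.77% of all transcripts), and DESeq2 called 1, lower (0.437%). The median was -1.34 with edgeR and -1.35 with DESeq2. The ammonium libraries lay below all water libraries for 2 members, against 6.01% of all transcripts, and above them for 0, against 4.38%. Read in the experiment left out, the medians were 0.88, -2.14 and -0.13. In the root cap, where most members were near the floor, the median difference was -0.19 against -0.01 for all transcripts, and it was -0.08 with the water library of experiment 1 left out and -0.12 with that of experiment 3 left out. On other scales it was -0.72 (pseudocount 0.1), -0.06 (pseudocount 4), -1.85 (edgeR) and -1.86 (DESeq2). None passed the limma test (0.00639% of all transcripts did), and 0 had an unadjusted p under 0.05, where 1.58% of all transcripts were lower. The tool edgeR called 0, with 1 member higher and 34 lower at an unadjusted p under 0.05 (2.89% of all transcripts were lower). DESeq2 called 17, all lower (0.311% of all transcripts), and for 32 members the groups did not overlap in that direction, against 6.65% of all transcripts. For 2 members the ammonium libraries lay above all water libraries, against 6.03% of all transcripts.

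Whether the difference between ammonium and water in the vessels departed from its mean in the other tissues was tested as an interaction. No member passed (limma; 0.0% of all transcripts did), and 3 were lower at an unadjusted p under 0.05, against 1.05% of all transcripts. With edgeR 0 passed and 3 were higher at an unadjusted p under 0.05 (1.55% of all transcripts). DESeq2 called 0, with 21 higher at an unadjusted p under 0.05, against 1202 of 46960 transcripts. The median interaction over the members was -0.03 with limma on log2(value + 1), with 95 members higher and 105 lower. On reads it was 1.49 with edgeR and 1.53 with DESeq2, each with 190 higher and 10 lower, so its direction depended on the scale. Without the meristem ammonium libraries 3 and 4 the limma median was -0.22, with 65 members higher and 135 lower. These contrasts share water libraries with the choice of members.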

How the data were processed

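RNA from 24 microdissected libraries was analysed. Each deposited value is a scaled signal; that it is reads over a library size was judged from its steps. The submitters' processing notes name BWA and bcl2fastq. How reads were counted and scaled, and on which reference, is not stated there. All values (100%) in every library came out as whole reads within a tolerance of 0.01, so reads could be recovered. The planned design assumed CPM, and the same log-scale test was used for the scaled signal.

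Values were analysed as log2(value + 1), which understates the change of low transcripts. The filter asked for values of 1 or more in 3 or more libraries and left 46960 transcripts. Vessels were compared with each other tissue by limma (empirical Bayes with trend) on the 12 ammonium libraries alone. Ammonium was compared with water, and the interaction tested, by limma over all 24 libraries in 8 groups. Calls were made at an adjusted p (Benjamini-Hochberg, over all transcripts tested) under 0.05. The members, lists and tests were chosen with earlier results of these data known.

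Members were named by a fixed rule: the 8 widest gaps, the 4 highest vessel means, vessel ammonium libraries apart from water, 3 on each side of the list's limit, the 4 largest and 4 smallest ammonium differences, the longest run, and the 3 largest and 3 smallest coefficients of variation. Alternatives were pseudocount, filter, scaling, experiment as a block, edgeR, DESeq2, the spread of 1 tissue, other choices of members, and libraries left out. The procedures were also run on simulated data as a check of the steps. Those data had the same spread setting for all transcripts, no libraries that stood apart, and changes only in transcripts with many reads. They therefore do not bear on the calls made here. R 4.3.3, limma 3.58.1, edgeR 4.0.16, DESeq2 1.42.0 and matplotlib 3.10.9 were used.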

Additional observations from a re-analysis of the deposited data

How the results depend on the processing

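The calls of vessels over the other tissues in the ammonium libraries depended on the test: edgeR on recovered reads called 85 over each tissue and 85 against the meristem, and both numbers were 126 when the meristem ammonium libraries 3 and 4 were left out. The cause was not tested. In the second case the number of libraries and the meristem profile changed together, so they cannot be told apart. With 1 ammonium library left out at a time, 190 to 198 members were called over each other tissue. The counts were 198 to 200 against the root cap, 191 to 199 against the meristem and 197 to 200 against the cortex. Of all 46960 transcripts, 1772 to 2800, 2954 to 4456, 1907 to 3207 and 2909 to 4697 were called higher, in the same order. Over all transcripts that met the rule, 72.1% of 2573 tested were called. A pseudocount of 4 left 1397 transcripts that met the rule. The rule without 1 experiment was met by 2352 to 3065, and 164 to 169 of the 200 members were then listed again; with a pseudocount of 0.1, 129 were.

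For ammonium against water, DESeq2 called 17 members lower in the root cap, 1 in the meristem and 8 in the cortex, against 0.311%, 0.437% and 1.2% of all transcripts. With 1 library left out at a time, 0 to 1 were called in the meristem and 0 to 1 in the vessels. The counts were 0 to 0 in the root cap, in the cortex and for the interaction. The 1 in the meristem came without the water library of experiment 4, where 30 of 46960 transcripts were called lower. The 1 in the vessels came without the ammonium library of experiment 1, where 119 of 46960 were called lower. Over the same runs the members' median differences ranged from -0.28 to -0.08 in the root cap and -0.78 to 0.39 in the meristem. In the vessels they ranged from -0.81 to 0.07 and in the cortex from -1.02 to -0.50. Other scales moved them further: edgeR gave -1.85, -1.34, -0.32 and -2.32 and DESeq2 -1.86, -1.35, -0.31 and -2.30 for these 4 tissues, and a pseudocount of 0.1 gave -0.72 in the root cap and -1.77 in the cortex. The alternative without the meristem water library of experiment 3, and the counts of non-overlapping libraries, shares by gap and lists of other tissues without meristem ammonium libraries, were added after the data were seen.

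The labels do not say what the experiment numbers share, and the deviations of same-numbered libraries from their group means did not all correlate above 0.1, the criterion set for pairing. The correlations ran from -0.04 to 0.63 between the vessels and other tissues under ammonium (9 pairs), where 7 of 9 libraries were closest to their own number, a hint from the data that the ammonium libraries of an experiment deviated together. Between water and ammonium they ran from -0.34 to 0.35 (12 pairs), and 4 of 12 libraries were closest to their own number. With the experiment number as a block, 198 members were called over each other tissue, as without it. Of 46960 transcripts, 2735 were called so with the block and 2375 without it. All 9 counts of called members were the same with and without the block. Those of vessels over other tissues were 198 or 200 of 200. Those of ammonium against water in each tissue and of the interaction were 0.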
